A study of Mus musculus with 10 samples.

Results

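The nuclear factor I (NFI) family of the mouse comprises the transcription factor genes Nfia, Nfib, Nfic and Nfix. The members were chosen by symbol in a matrix of RNA pulled down with MEX3A, an RNA-binding protein with KH domains, and all 4 of them were found among the 15899 genes of that matrix. RIP-seq, in which the RNA bound to an immunoprecipitated protein is sequenced, was done with an anti-FLAG antibody on neurosphere cultures, the floating aggregates that neural stem cells form in EGF and FGF, derived from the brain subependymal zone of mice labelled as 10 weeks old. FLAG cultures were homozygous for a knock-in that adds a FLAG peptide to the endogenous MEX3A (Mex3aFLAG/FLAG), and WT cultures of the same background lacked the tag, so that their pulldown gave the nonspecific background. The immunoprecipitation was carried out after crosslinking with formaldehyde (2 libraries of FLAG and 2 of WT) and in native conditions without it (3 of FLAG and 3 of WT), and the comparison of FLAG with WT asks which RNAs are bound by MEX3A. The cultures had been passaged several times, both groups are unsorted and grown in mitogens, and the labels do not tie a library to an animal, so p-values measure the spread between these cultures only.

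NFI proteins bind DNA as dimers to a palindromic site through a conserved N-terminal domain and act as activators or repressors according to the promoter. In the embryonic brain Nfia and Nfib are induced as neural progenitors pass from neurogenesis to gliogenesis, downstream of Notch and of SOX9, with which NFIA cooperates on astrocyte genes. Nfix is best known in the postnatal brain for the balance of quiescence and proliferation of neural stem cells, and Nfic for root formation in teeth.

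The 4 genes lie on 3 chromosomes of GRCm38, with coordinates that are the same in the matrix and in the GENCODE M21 annotation. Nfia spans chr4:97772734-98118874 on the plus strand. Nfib spans chr4:82290173-82705750 on the minus strand of the same chromosome. Nfic spans chr10:81396186-81455635 and Nfix chr8:84699876-84800344, both on the minus strand. Nfia and Nfib are long genes of 346141 and 415578 nt, of which exons cover 3.15% and 3.6%, while Nfic and Nfix measure 59450 and 100469 nt with 11.15% and 7.32% in exons. The longest transcripts split in the same way by base composition. Nfia and Nfib had a GC content of 42.7% and 43.3% in their longest transcripts, below the median of 48.5% over the genes of the matrix, and Nfic and Nfix had 57.4% and 57.1%. Coding sequences of the members were alike in 69.8% (Nfib with Nfic) to 74.9% (Nfic with Nfix) of aligned bases. The longest run of bases that all 4 coding sequences share is shown because it marks the family and because it is far shorter than a read. It is 17 nt long and lies within 1 exon in each gene, in Nfia at chr4:97783142-97783158 (plus strand).

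NFI shared run: TGGTTCAACCTGCAGGC

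No stretch of 75 nt, the read length, was shared between 2 members or between Nfia, Nfib or Nfic and any other annotated transcript, whereas 0.891% of the windows of that length in Nfix also occurred elsewhere. Reads of the members could therefore be told apart by their sequence in nearly all positions.

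MEX-3 proteins are known to recognise an element in 3' UTRs, the MEX-3 recognition element, made of a pair of short motifs with a spacer of at most 8 nt. The sense strand of the longest 3' UTR annotated for a gene was searched for it. The match nearest to the end of the 3' UTR is shown for each member that has one, with the motif pair in capitals, to let the members' elements be compared. The Nfia site lies at chr4:98118732-98118761 (plus strand), 124 nt from the end of the 3' UTR. The Nfib site is at chr4:82290394-82290423 (minus strand), 229 nt from the end, with a spacer of 7 nt. For Nfix it is at chr8:84704906-84704935 (minus strand), 205 nt from the end.

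Nfia: gctggtgtggaTTAGTTTAactcttgtatt
Nfib: cggaatgTTAGtgaaggtTTTAttgtgccc
Nfix: aagaaacaaggGTAGTTTActgtctgtttt

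Nfib held about as many matches as other 3' UTRs of its length, and Nfia, Nfix and Nfic held fewer. The 3' UTR of Nfib (6624 nt) held 22 matches, or 3.32 per kb, against a median of 2.94 per kb in 434 3' UTRs within 20% of its length, of which 62.4% had a lower rate. In Nfia (7642 nt) there were 13 matches, or 1.70 per kb, below the median of 3.09 per kb of 269 similar 3' UTRs, of which 8.2% had a lower rate. Nfix (3954 nt) held 3 matches, or 0.759 per kb against a median of 2.60, and 4.8% of similar 3' UTRs had a lower rate. No match was present in the 4871 nt of Nfic, although 99.57% of 941 3' UTRs of similar length had at least 1. A second form of the element, in which the last bases of the second motif are exchanged, gave 12, 21, 1 and 4 matches in Nfia, Nfib, Nfic and Nfix, with a lower rate in 9.7%, 63.1%, 0.1% and 10.4% of similar 3' UTRs. The element is rich in A and T, and the 3' UTRs of Nfic and Nfix had a GC content of 55.7% and 56.5% against a median of 44.8% over 11922 3' UTRs. Nfia and Nfib were alike in GC content (39.6% and 39.2%) although Nfia had the lower rate of matches. What part base composition has in these counts was not tested. A match of letters is a description of the sequence and not a bound site.

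**Figure D1:**
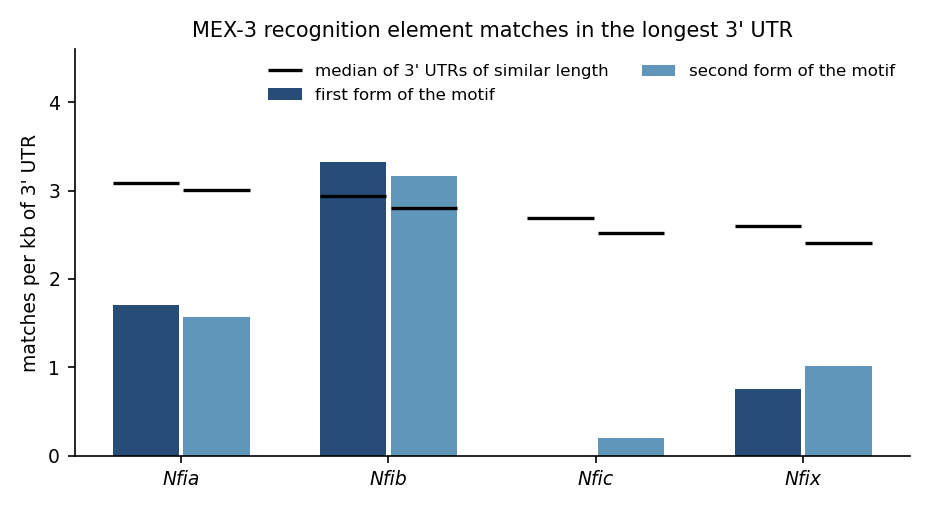
Matches of the MEX-3 recognition element per kb of the longest 3' UTR of each NFI gene (bars, linear axis from 0) in the first and the second form of the motif, with the median of 3' UTRs of similar length as black lines. Nfib stands above the lines in both forms (3.32 and 3.17 per kb) and Nfia, Nfic and Nfix below them.

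The values of the matrix are on a log2 scale on which every library has nearly the same distribution, and the depth of the libraries is unknown. FLAG native replicates 1 and 3 stood apart, with 329 and 178 genes tied at the lowest value against at most 3 in the other libraries. Fold changes of the members between FLAG and WT, and medians of the lists of related genes, are also given without both. FLAG replicate 2 is then the only FLAG library in native conditions, so native values without both are effect sizes with no spread in FLAG. Of 12 neural stem cell markers 11 were in the matrix (all but Gfap) and their values added up to between 3431 and 4502 on the linear scale in the 10 libraries. Of 8 neuroblast markers only Gad1, an enzyme of GABA synthesis, was among the genes analysed here, and its linear values of 25.8 to 37.7 in FLAG and 14.7 to 25.3 in WT libraries did not overlap (pooled log2 fold change 0.65, SE 0.17, limma adjusted p = 0.105, and 0.86 without FLAG native replicates 1 and 3). Summed levels of 2 of 8 oligodendrocyte markers (11.02 to 28.4), 3 of 6 microglia markers (28.8 to 36.6) and 1 of 5 ependymal markers (1.01 to 7.12) were low. Of 5 endothelial markers 3 were measured, with sums of 12.2 to 22.2 in FLAG and 3.95 to 10.7 in WT libraries. Flt1, a receptor of VEGF, was the one with the higher value in FLAG (pooled log2 fold change 2.23, limma adjusted p = 0.0468), whereas Pecam1 and Kdr were at -0.58 and -1.09 and the list median was -0.58. Without FLAG native replicates 1 and 3 Flt1 was at 2.47 but no longer called (adjusted p = 0.154), Kdr was at -1.89 and the median at -0.45. The part of endothelial cells and neuroblasts in the values of the NFI genes was not tested. Since the libraries hold bulk RNA, fewer cells of a type and less RNA per cell cannot be told apart in any of these values.

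Nfia and Nfib had values per kb of exon among the highest of every pulldown, tagged or not, while Nfix was intermediate and Nfic low. To compare levels between genes, the linear values were divided by the exon length in kb. On this scale Nfia ranked between 99 and 208 among 15864 genes with a known length, Nfib between 222 and 396, Nfix between 1562 and 2411 and Nfic between 9209 and 12334. The mean log2 level per kb over the libraries of all groups was 7.16 ± 0.26 (SD, n = 10) in Nfia, 5.996 ± 0.21 in Nfib, 3.42 ± 0.20 in Nfix and 0.16 ± 0.31 in Nfic. The ranges of the 4 genes did not overlap (6.77 to 7.62, 5.68 to 6.38, 3.15 to 3.82 and -0.20 to 0.75), so the order Nfia, Nfib, Nfix, Nfic held in each of the 10 libraries. With the length of the longest transcript in place of all exons, Nfib reached 6.71 and Nfix 3.84, and the order of the means was the same. Both lengths hold exons only. Whether reads within introns were counted is not given in the sources, and the part of gene length in these levels was not tested.

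On the linear scale per kb, Nfia made up 60.3 to 67.7% of the NFI level of a library and Nfib 27.1 to 32.3%. Nfix contributed 3.58 to 7.79% and Nfic 0.376 to 0.927%. Nfia and Nfib together came to between 91.3% and 96.1%, and the lowest of these shares was in FLAG native replicate 1, in which Nfix and Nfic had their highest shares.

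**Figure D2:**
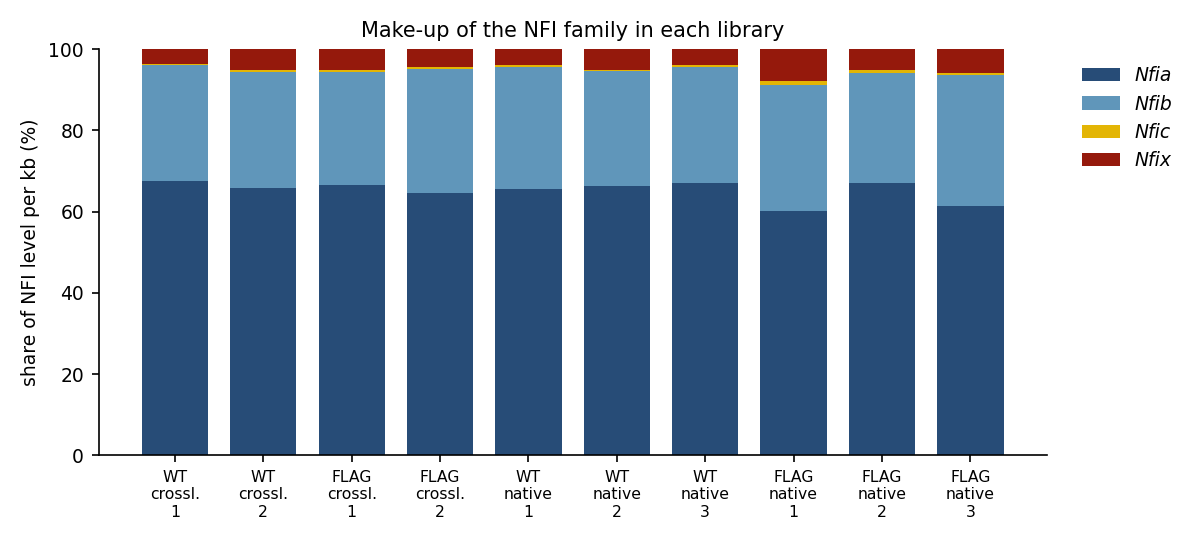
Share of each NFI gene in the summed NFI level per kb of exon (%, linear scale) in the 10 libraries. Nfia forms 60.3 to 67.7% of every bar and Nfia with Nfib at least 91.3%.

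Nfia, the member most closely tied to the onset of gliogenesis, had FLAG and WT values that overlapped in both protocols. Its log2 values were 10.51 and 10.59 in FLAG and 10.83 and 10.33 in WT after crosslinking. Both FLAG values lay between the WT values. In native conditions the values were 10.22, 10.71 and 10.33 in FLAG and 10.81, 10.62 and 11.06 in WT. FLAG replicates 1 and 3, those with the many tied genes, were below every WT library, whereas FLAG replicate 2 lay between WT replicates 2 and 1, so the groups overlapped. The fold change (log2, FLAG over WT) was -0.03 (SE 0.21, 95% interval -0.61 to 0.55, limma adjusted p = 0.987) after crosslinking and -0.41 (SE 0.19, -0.85 to 0.03, adjusted p = 0.316) in native conditions. Pooled over the 10 libraries in a fit that includes the protocol, it was -0.26 (SE 0.15, -0.59 to 0.08, adjusted p = 0.325). The crosslinked value turned with the library left out, from 0.22 without WT crosslinked replicate 1 to -0.28 without WT crosslinked replicate 2. Without FLAG native replicates 1 and 3 the native and the pooled fold changes of Nfia were -0.12 and -0.07. With trends on transcript length and GC content removed from the libraries, the native value was -0.27. Leaving out FLAG native replicate 2 instead gave -0.56 in native conditions, a size just below the 0.58 used here for calls in either direction.

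Nfib, which acts with Nfia in glial differentiation and lies on the same chromosome, had a similar pattern. The crosslinked FLAG libraries had 9.72 and 9.97 and the crosslinked WT libraries 10.04 and 9.58, the WT values enclosing those of FLAG. Native FLAG libraries had 9.72, 9.86 and 9.86 against 10.13, 9.83 and 10.28 in WT. The highest FLAG values lay just above the lowest WT value and the groups overlapped. Fold changes were 0.03 (SE 0.21, -0.55 to 0.61, adjusted p = 0.985) after crosslinking, -0.27 (SE 0.17, -0.65 to 0.11, adjusted p = 0.396) in native conditions and -0.15 (SE 0.13, -0.44 to 0.14, adjusted p = 0.492) over all libraries on the log2 scale. Without FLAG native replicates 1 and 3 the native and the pooled values of Nfib were -0.22 and -0.08. Single libraries moved these values too. The crosslinked value was 0.26 without WT crosslinked replicate 1 and -0.20 without WT crosslinked replicate 2. The native value was -0.17 without WT native replicate 3, and the pooled value was -0.08 without that library and -0.25 without WT crosslinked replicate 2. Removal of the trends on length and GC content left -0.15 in native conditions and -0.08 over all libraries.

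Nfix, the member linked to quiescence of postnatal neural stem cells, was the only one whose groups did not overlap in a protocol. Its crosslinked values were 6.24 and 6.17 in FLAG and 6.03 and 6.09 in WT, with both FLAG libraries above both WT libraries by a narrow margin. Of all genes 39.0% had FLAG and WT libraries that did not overlap after crosslinking, and 19.1% had FLAG above WT. In native conditions Nfix had 6.70, 6.43 and 6.37 in FLAG and 6.19, 6.32 and 6.43 in WT. FLAG replicate 1 was the highest, FLAG replicate 2 lay above the highest WT library by a difference that vanishes on rounding, and FLAG replicate 3 lay among the WT values, so the groups overlapped. The log2 fold change of Nfix was 0.14 (SE 0.08, -0.09 to 0.37, adjusted p = 0.754) after crosslinking, 0.19 (SE 0.17, -0.19 to 0.57, adjusted p = 0.533) in native conditions and 0.17 (SE 0.10, -0.04 to 0.38, adjusted p = 0.311) over all libraries. The native value was 0.09 without FLAG native replicate 1, and 0.12 without FLAG native replicates 1 and 3. The sign of Nfix was positive in all of the alternatives run for these comparisons.

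Nfic, the member with the lowest values, had 2.53 and 2.73 in FLAG and 2.63 and 2.67 in WT after crosslinking, the FLAG values enclosing those of WT. The native libraries had 3.48, 3.23 and 2.71 in FLAG and 2.97, 2.76 and 3.15 in WT. FLAG libraries were both the highest and the lowest of the native set. The log2 fold change was -0.02 (SE 0.12, -0.35 to 0.30, adjusted p = 0.981) after crosslinking, 0.18 (SE 0.27, -0.44 to 0.79, adjusted p = 0.722) in native conditions and 0.10 (SE 0.17, -0.27 to 0.46, adjusted p = 0.728) over all libraries. Single libraries decided the size of these values. The crosslinked value was 0.08 without FLAG crosslinked replicate 1 and -0.12 without FLAG crosslinked replicate 2. Without FLAG native replicate 1 the fold change was 0.008 in native conditions and -0.01 over all libraries, and without FLAG native replicate 3 it was 0.39 and 0.20. Array weights turned the native value to -0.04. Without FLAG native replicates 1 and 3 the native value of Nfic was 0.27, and with the trends on length and GC content removed it was 0.12.

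**Figure D3:**
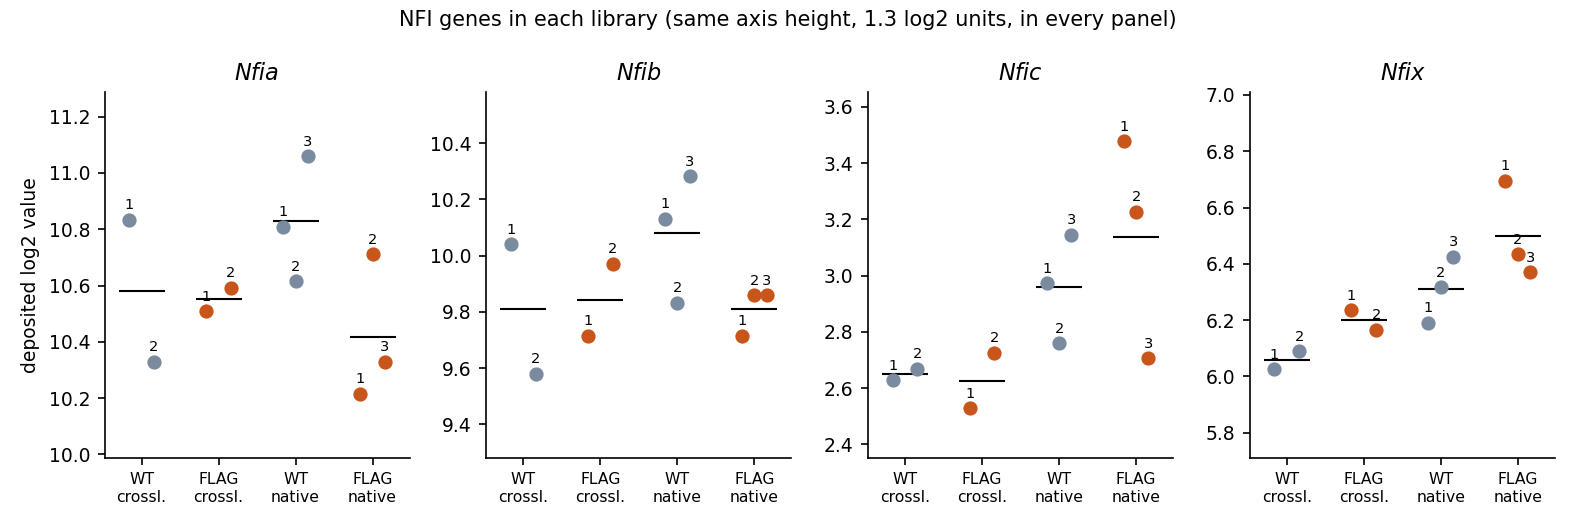
Deposited log2 value of each NFI gene in the 10 libraries, by tag and protocol, with the replicate number above each point and the group mean as a line. The FLAG and WT points overlap in every panel and protocol except for Nfix after crosslinking, where 6.17 and 6.24 in FLAG stand above 6.03 and 6.09 in WT.

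A gene was called when its limma p-value, adjusted over all genes, was below 0.05 and its log2 fold change exceeded 0.58 in either direction. The study uses these thresholds for enrichment in FLAG with DESeq2 and kept genes enriched in both protocols. Here they were applied to limma fits of the deposited values, and to lower values as well. These fits called 0 genes of the matrix higher in FLAG after crosslinking and 0 in native conditions. The study's enriched genes were thus not recovered within a protocol, and counts of calls here cannot be set against its calls. Of the 4 NFI genes 0 were called in the crosslinked comparison (0% of all genes), 0 in the native comparison (0.107%) and 0 over all libraries (0.497%). At an unadjusted p under 0.05 the count was 0 of 4 as well, against 7.70%, 16.7% and 21.1% of all genes. With calls this rare, 0 of 4 lies near the share of all genes and does not set the family apart. The intervals bound the size of a change that these libraries leave possible. Over all libraries the upper bound of every member was below 0.58, as for 63.3% of all genes, and in Nfib, Nfic and Nfix the whole interval lay between -0.58 and 0.58, as for 32.3% of all genes. The upper bounds of the 4 members over all libraries were below 0.58 under each of the alternatives run as well, with 0.563 for Nfic as the highest. Without FLAG native replicates 1 and 3 the pooled fold changes of Nfic and Nfix were 0.10 and 0.14 on the log2 scale. Within a protocol the intervals were wider. After crosslinking that of Nfib reached 0.61 on the upper side and that of Nfia -0.61 on the lower side. In native conditions the interval of Nfic reached 0.79, and those of Nfia and Nfib reached down to -0.85 and -0.65.

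FLAG and WT libraries did not overlap in the native comparison in 0 of 4 members, against 19.4% of all genes, and 0 of 4 were separated the same way in both protocols, against 9.31%. No difference between the protocols in the change of FLAG over WT passed the test of that difference itself. The native minus the crosslinked log2 fold change was -0.38 for Nfia, -0.30 for Nfib, 0.20 for Nfic and 0.05 for Nfix, each with an SE between 0.21 and 0.35 and an adjusted p of 0.970 or 0.979. The values of Nfia and Nfib came to -0.13 and -0.07 without WT crosslinked replicate 2 and to -0.63 and -0.53 without WT crosslinked replicate 1. That of Nfic was 0.03 without FLAG native replicate 1, 0.42 without FLAG native replicate 3 and 0.008 with array weights, and that of Nfix ranged from -0.05 to 0.11 as single libraries were left out. Without FLAG native replicates 1 and 3 the value was -0.09 for Nfia and 0.29 for Nfic. None of the 4 was called in that test (0% of all genes), and 0 of 4 had an unadjusted p under 0.05 (0.428% of all genes).

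**Figure D4:**
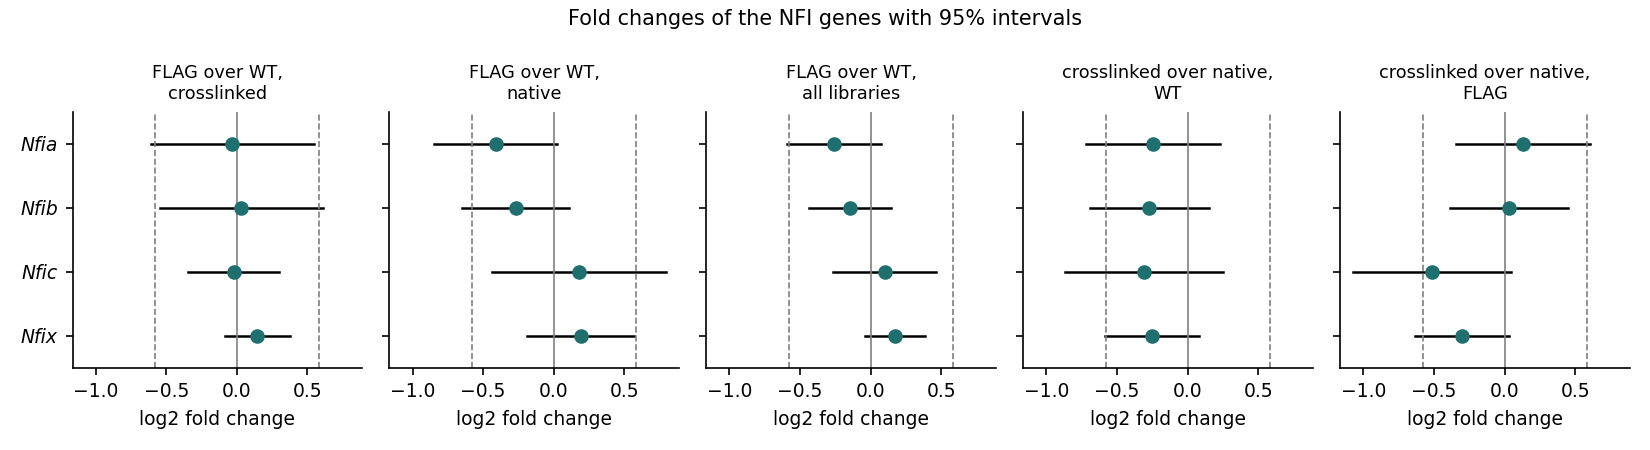
Log2 fold change of each NFI gene (points) with its 95% interval (bars) in 5 comparisons, with dashed lines at -0.58 and 0.58. Every interval includes 0, and over all libraries none reaches 0.58 on the upper side.

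In the untagged cultures all members had somewhat lower values after crosslinking, by less than the test calls. The log2 fold change of crosslinked over native WT libraries was -0.25 for Nfia, -0.27 for Nfib, -0.31 for Nfic and -0.25 for Nfix, with adjusted p-values of 0.789 to 0.885 in the fit of 4 groups. All 4 were negative, where 53.1% of all genes were above 0. For Nfia and Nfib this rested on WT crosslinked replicate 2, without which they were at 0.006 and -0.04, against -0.50 for both without WT crosslinked replicate 1. The crosslinked values of Nfic and Nfix in WT lay below every native value, so 2 of 4 members were without overlap against 29.8% of all genes, 12.5% in this direction. In FLAG the same fold change was 0.13 for Nfia, 0.03 for Nfib, -0.51 for Nfic and -0.30 for Nfix, with adjusted p-values of 0.362 to 0.947, and only Nfix of the 4 was without overlap (31.4% of all genes, 13.5% in this direction). Leaving out FLAG native replicates 1 and 3 turned Nfia and Nfib to -0.16 and -0.02 and put Nfic and Nfix at -0.60 and -0.23. No member was called for the protocol in WT (0.333% of all genes) or in FLAG (0.440%), and 0 of 4 had an unadjusted p under 0.05, against 7.48% and 15.4% of genes.

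Over the 10 libraries the highest correlations among the members were those of Nfia with Nfib and of Nfic with Nfix. Nfia and Nfib had a Pearson correlation of 0.869 (Spearman 0.829), and of 0.831 after the group means were removed. Nfic and Nfix had 0.822 (Spearman 0.758), and 0.674 after removal of the group means. Each of the other 4 pairs had a Pearson correlation between -0.260 and 0.170. This contrast was smaller in the 8 libraries left without FLAG native replicates 1 and 3, with 0.947 for Nfia and Nfib, 0.757 for Nfic and Nfix, and 0.258 to 0.606 for the other 4 pairs. These values are descriptions. The points share libraries and a common normalisation, and correlations of this size were frequent, since Nfib stood only at rank 297 among the genes most like Nfia, and Nfix at rank 32 among those most like Nfic. The pairs are also those that share transcript GC content and gene length, and the part of these in the correlations was not tested.

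The ratio of members within a library does not depend on a factor common to the library. In WT Nfia exceeded Nfix by 4.24 to 4.81 on the log2 scale and in FLAG by 3.52 to 4.43, and FLAG native replicate 1 gave the lowest of these differences. Averaged over the protocols, the difference of Nfia and Nfix was 0.43 lower in FLAG than in WT (exact permutation test within protocols, two-sided p = 0.0833). For Nfib and Nfix it was 0.32 lower (exact permutation p = 0.0667). Without FLAG native replicates 1 and 3 these differences fell to -0.20 and -0.21, given with no test. Of the 6 pairs tested, 0 passed after Benjamini-Hochberg adjustment over the pairs (lowest exact permutation value 0.2), where the smallest p that 120 relabellings allow is 0.0167. The relabellings take all libraries as independent. The labels do not say whether crosslinked and native libraries share a culture, in which case these p-values would be too small.

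The genes whose values ran closest to a member over the 10 libraries, among 7949 genes at or above the median level, were named by Pearson correlation and with no test. For Nfia they were Cdh20, a cadherin (0.971), Pitpnc1, a phosphatidylinositol transfer protein (0.968), and Ppm1e, a protein phosphatase (0.967). For Nfib they were Svep1, an extracellular matrix protein (0.954), Jag1, a Notch ligand (0.949), and Ptdss1, a phosphatidylserine synthase (0.934). Wdtc1 (0.937), Lfng, a glycosyltransferase that modifies Notch (0.928), and Ptprf, a receptor phosphatase (0.918), came first for Nfic. Eftud2, a GTPase of the spliceosome (0.956), Gdf11, a TGF-beta family ligand (0.953), and Slc3a1, an amino acid transporter subunit (0.942), came first for Nfix. Once the group means were removed, Svep1 and Jag1 were still among the 3 genes closest to Nfib, and none of the named genes was for the other members. The values of the members varied less than those of most genes, with SDs over the 10 libraries of 0.264 (Nfia), 0.211 (Nfib), 0.308 (Nfic) and 0.197 (Nfix) against a median of 0.398.

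Some annotated loci overlap the members, and a strand setting is not given in the sources for the read counting, so reads of a member and of a gene on the opposite strand may not be separated. E130114P18Rik begins head to head with Nfia and shares 4 nt of exon with it. Its log2 fold change was 0.04 after crosslinking and -0.59 (SE 0.24, unadjusted p = 0.0336, not called) in native conditions, beside -0.41 for Nfia. Gm11266, an antisense RNA within Nfib with no shared exon base, had -0.10 and -0.67 beside 0.03 and -0.27 for Nfib. G430095P16Rik, on the opposite strand within Nfix, shares 137 nt of exon and had 0.15 and 0.10 beside 0.14 and 0.19 for Nfix. None of the genes within 500 kb of a member (3 for Nfia, 2 for Nfib, 36 for Nfic and 35 for Nfix) was called in any of the 3 comparisons of FLAG with WT.

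Genes that work with or under NFI in gliogenesis are given beside the members, by count and median. In the list of upstream regulators and partners all 7 genes were in the matrix, and 0 were called in the pooled comparison. Before adjustment 3 were higher and 1 lower (unadjusted p under 0.05, 11.2% and 9.85% of all genes), with a median log2 fold change of 0.18 against -0.03 for the 4 NFI genes and -0.03 for all genes. Without FLAG native replicates 1 and 3 the median of the list was 0.25, that of the NFI genes 0.02 and that of all genes -0.006, and 2 regulators were higher and 0 lower before adjustment (6.35% and 4.74% of all genes). Sox9, a transcription factor that precedes and partners NFIA, had log2 values of 3.89 and 4.19 in FLAG and 1.38 and 2.73 in WT after crosslinking. Its native values were 6.03, 3.77 and 6.54 in FLAG and 2.84, 3.91 and 2.57 in WT. The groups were apart after crosslinking, and in native conditions FLAG replicate 2 lay below WT replicate 2, while the FLAG replicates with the many tied genes were the highest. The pooled fold change of Sox9 was 2.20 (SE 0.50, adjusted p = 0.0852), and without these libraries it was 1.42 (SE 0.45, adjusted p = 0.307). In native conditions, with FLAG replicate 2 as the only FLAG library left, Sox9 was at 0.66. Pou3f2, a POU-domain factor of neural progenitors, had 0.93, and Notch1, the Notch receptor, 0.35. Left without the same libraries, Pou3f2 was at 0.32 and Notch1 at 0.28. Rbpj, the DNA-binding partner of Notch, was at -0.22. Zbtb20, which acts with NFIA and SOX9 in astrocytes, had a fold change of -0.03 (0.08 without these libraries). Sox9, Sox2, Pou3f2, Olig1 and Aqp4, which stand in the lists used here, were picked out by the study on these samples, so their direction is not independent evidence.

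The level of Sox9 relative to Nfia was 2.46 higher on the log2 scale in FLAG than in WT, averaged over the protocols, and relative to Nfix 2.03 higher. These differences were 1.49 and 1.28 when FLAG native replicates 1 and 3 were left out. Relative to Nfia it ranged from -6.94 to -3.79 in FLAG and from -9.46 to -6.70 in WT, and the ranges overlapped, since FLAG native replicate 2 lay below WT native replicate 2. This comparison is a description, because Sox9 was chosen for its enrichment.

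Of 14 genes known as NFI targets in neural progenitors 11 were in the matrix (Gfap, Apcdd1 and Hes5 were not analysed here), and 0 were called over all libraries. Before adjustment 5 were higher and 1 lower (11.2% and 9.85% of all genes), with a median of 0.33. With FLAG native replicates 1 and 3 left out there were 1 higher and 1 lower (6.35% and 4.74% of all genes), with a median of 0.22. Aqp4, the water channel of astrocytes, was at 1.66 (SE 0.49, adjusted p = 0.129), Hes1, a Notch effector, at 1.11 (SE 0.37, adjusted p = 0.157), Fabp7, a fatty acid binding protein of radial glia, at 0.79 and Slc1a2, a glutamate transporter, at 0.76. Slc1a3, the other glutamate transporter of astrocytes, was at -0.44 (SE 0.16, adjusted p = 0.168). Ezh2, a chromatin modifier that NFIB is known to repress, was at -0.09, and Aldh1l1, an astrocyte enzyme, at 0.06, both within their errors of 0. In the fit without these libraries the pooled values were 1.05 for Aqp4, 0.70 for Hes1, 0.36 for Fabp7, 0.51 for Slc1a2 and -0.47 for Slc1a3, and the native value of Fabp7 was -0.12. Aldh1l1 was then at 0.22 over all libraries. In native conditions, with FLAG replicate 2 as the only FLAG library, Aldh1l1 was at 0.45, where it had 0.05 with all libraries.

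Of 18 other transcription factors of gliogenesis and progenitors 16 were in the matrix (Sox10 and Id1 were not analysed here), and 0 were called. Before adjustment 9 were higher and 2 lower (11.2% and 9.85% of all genes), with a median of 0.56. Once FLAG native replicates 1 and 3 were left out there were 5 higher and 1 lower (6.35% and 4.74% of all genes), with a median of 0.27 (0.24 in native conditions). The crosslinked and the native comparison had medians of 0.30 and 0.77 for this list, beside 0.005 and -0.05 for the NFI genes. The largest pooled values of the list were those of Sox4 (1.94), a SoxC factor, Id2 (1.78) and Id4 (1.63), inhibitors of bHLH factors, which were 1.03, 1.22 and 1.40 in the fit without these libraries. The 4 NFI genes lay inside the range of this list in every comparison of FLAG with WT.

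**Figure D5:**
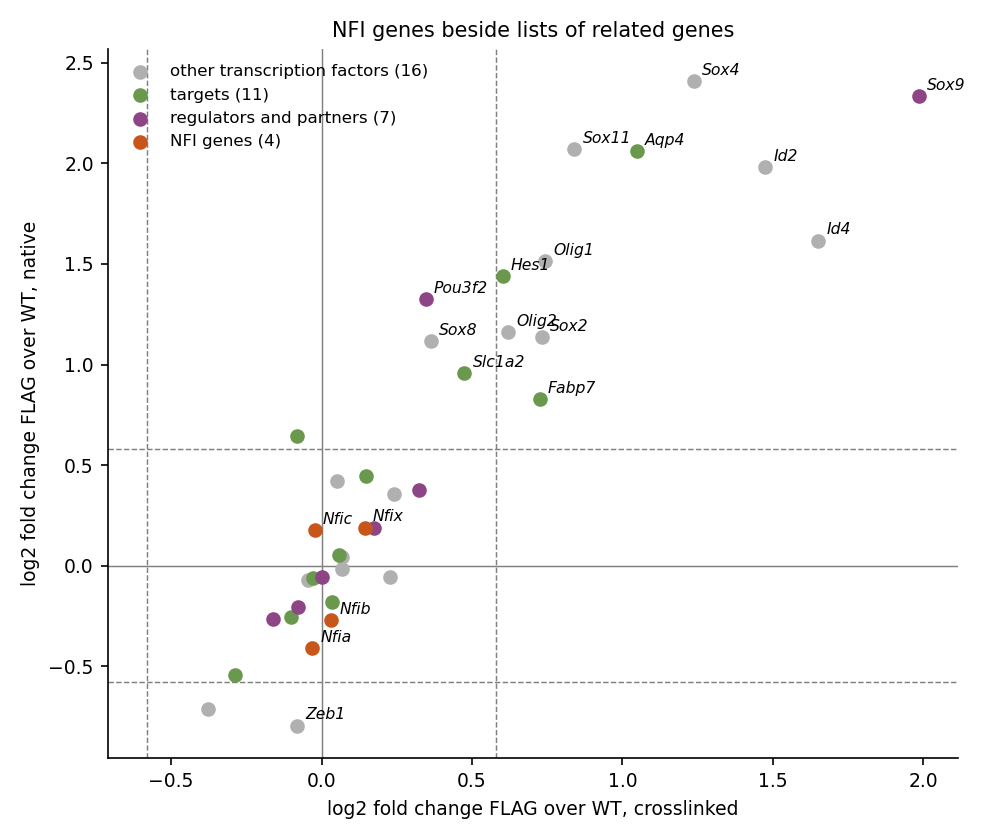
Log2 fold change of FLAG over WT after crosslinking (horizontal) and in native conditions (vertical) for the NFI genes and 3 lists of related genes, with dashed lines at -0.58 and 0.58. The 4 NFI genes lie between -0.41 and 0.19 on both axes, and Sox9 lies at 1.99 and 2.34.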

How the data were processed

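The authors trimmed the reads with Cutadapt and Trimmomatic, mapped them to GRCm38 with HISAT2 and counted them per gene (GENCODE M16) with featureCounts. The methods name DESeq2 for normalization and testing, and the submitters' processing notes name limma. The deposited matrix holds log2 values of 15899 genes in 10 libraries, mapped to samples by their titles, with nearly the same distribution in each library. No counts were recovered and the depth is unknown, so counting error cannot be given. FLAG and WT were compared on the log2 values as deposited in limma 3.58.1 (R 4.3.3; lmFit and eBayes with a trend), for each protocol separately and, with a term for the protocol, over the 10 libraries together. A fit of 4 groups tested the difference between protocols and the protocol itself. P-values were adjusted over all genes (Benjamini-Hochberg). Exact permutation tests relabelled libraries within protocols. The steps were tested on simulated data. GENCODE M21 (15864 genes found, 14849 with the same start and end) gave lengths and 3' UTRs, read from the GRCm38 genome. Sequence searches and exact tests ran in Python 3.11.15 with scipy 1.17.1. The named genes are the members, the genes of lists of regulators, targets and other factors, the 3 genes most like each member, and overlapping or neighbouring genes. One gene of these lists is not reported here by name. Members and lists were chosen with earlier results of these data known. Alternatives were pseudocounts, a minimum mean, centring, removal of trends with length and GC content, a replicate block, array weights, robust moderation, 1 fit of 4 groups and leaving out libraries. Leaving out both FLAG native libraries with many tied genes, crossing the replicate numbers, and taking the culture (tag and replicate number) as a random block were chosen after seeing the data.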

Additional observations from a re-analysis of the deposited data

How the results depend on the processing

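The number of NFI genes called was 0 under all 117 alternatives. Of 462 fold changes of members under alternatives 443 had the direction reported and 19 had the opposite one. Leaving out single libraries gave ranges, lowest to highest, that crossed 0 for Nfia (-0.284 to 0.222), Nfib (-0.196 to 0.262) and Nfic (-0.121 to 0.076) in the crosslinked comparison, for Nfic over all libraries (-0.006 to 0.204), for Nfix in the difference between protocols (-0.052 to 0.111), and for crosslinked over native in Nfia of WT (-0.500 to 0.006) and Nfib of FLAG (-0.096 to 0.159). Array weights turned Nfic in native conditions to -0.043. With the trend on length and GC content removed, the difference between protocols of Nfix was -0.028, and crosslinked over native in FLAG was -0.057 for Nfia and -0.111 for Nfib. Trimmed mean centring gave -0.031 for Nfib there. With both FLAG native libraries with many tied genes left out these values were -0.019 for Nfix, -0.160 for Nfia and -0.016 for Nfib. The cause was not tested in any of these. Adjusted p-values fell under 0.05 at folds below the threshold with array weights, for Nfia in native conditions (-0.520, adjusted p = 0.0482) and over all libraries (-0.220, 0.0457) and for Nfix over all libraries (0.145, 0.026). Over the whole table, 0 genes were called higher and 17 lower in native conditions, against 1450 and 1710 when FLAG native replicate 2 was left out and 1656 and 1921 with array weights, while the other alternatives gave at most 22 and 33. Over all libraries 42 and 37 became 516 and 186 without FLAG native replicate 2, 1105 and 964 under array weights, 182 and 219 without WT crosslinked replicate 2, and as few as 4 and 10 without FLAG crosslinked replicate 2.

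The other whole-table counts moved as well. Crosslinked over native gave 7 higher and 46 lower in WT (439 and 425 under array weights, 14 and 128 when FLAG native replicate 2 was dropped, 0 and 0 without WT crosslinked replicate 2) and 7 and 63 in FLAG (584 and 904 under array weights, 1204 and 1444 when FLAG native replicate 2 was dropped, 0 and 0 without both libraries with many ties). The difference between protocols gave 0 and 0, and 1 and 0 without FLAG native replicate 2.

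For same-numbered FLAG and WT libraries, deviations from the group means correlated at -0.274 after crosslinking and at -0.430 to -0.149 in native conditions. No pairing by number was seen between them. The 2 crosslinked libraries of a group deviate as mirror images, so the crosslinked pairs differ in sign only. With the number as a replicate block the 4 NFI genes had pooled fold changes of -0.259, -0.149, 0.098 and 0.171, and 0 were called in any comparison. Crossing the numbers in the crosslinked comparison, an alternative chosen after seeing the data, also gave 0 calls. Crosslinked and native libraries of the same tag and number had correlations of 0.154 to 0.388, and those of other numbers had -0.388 to 0.232. Since crosslinked deviations mirror each other, these values are not independent and do not settle whether the numbers mark cultures. With the culture (tag and replicate number) as a random block, also chosen after seeing the data, 0 members were called. The pooled fold changes were then -0.288 for Nfia, -0.166 for Nfib, 0.065 for Nfic and 0.157 for Nfix. Over the whole table this block left 7 higher and 8 lower genes over all libraries, 9 and 83 for the protocol in WT and 21 and 171 in FLAG.

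Nfic falls out of the test under a minimum mean of 10 on the linear scale. In the crosslinked comparison 0 genes were called and the smallest adjusted p was 0.315, and without WT crosslinked replicate 2 there were 4 higher and 0 lower.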
